A study of Mus musculus with 39 samples.

Results

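Brain RNA of mice given the antisense oligonucleotide labelled ASO 1 was compared with brain RNA of mice given saline. The members are the 3 libraries with the group label ASO 1, whose treatment code is RTR114030, and the 5 libraries with the group label Saline, 8 of 39 libraries in all. The series title and design text name Tmem106b as the oligonucleotides' target and Grn haploinsufficiency as the setting, and 7 further treatments (ASO 2, ASO 3, ASO 4, RTR113609, RTR113643, RTR113841 and RTR59155; 31 libraries) are used only to place ASO 1. Every library was polyadenylated RNA labelled as mouse brain, although the extraction protocol speaks of a cell pellet. The labels used here give no strain, Grn genotype, age, sex, dose, route, time after dosing, brain region or batch, and no control oligonucleotide is identified. They do not say that each library is a separate mouse, so p-values measure the spread between these libraries, which may in part be technical.

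TMEM106B is a membrane protein of late endosomes and lysosomes, and common variants at the human gene modify the risk of frontotemporal dementia, above all in carriers of GRN mutations. GRN encodes progranulin, a secreted protein that is delivered to lysosomes and cut there into granulins. Antisense oligonucleotides are short synthetic strands that pair with an RNA, and many are built so that RNase H1 cuts the paired RNA; no source used here gives the chemistry or sequence of ASO 1.

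Tmem106b has 2 paralogs, and coding sequences are shown because reads can be shared between similar genes only where the genes are nearly identical. In GENCODE M21 (GRCm38) the 825-base coding sequence of Tmem106b was 56.7% identical to that of Tmem106a over 772 aligned bases and 61.0% identical to that of Tmem106c over 766 aligned bases. Within the coding sequences, the longest stretch that Tmem106b shares exactly with either paralog is 10 bases, in capitals below. Reads were counted over 6002 exonic bases of Tmem106b, and the part outside the coding sequence was not compared. The first pair lies in exon 5 of Tmem106b (chr6:13078101-13078150, plus strand) and exon 5 of Tmem106a (chr11:101586248-101586297, plus strand).
Tmem106b: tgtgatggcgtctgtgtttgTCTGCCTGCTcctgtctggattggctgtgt
Tmem106a: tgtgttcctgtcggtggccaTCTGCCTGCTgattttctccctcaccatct
The second pair lies in exon 3 of Tmem106b (chr6:13071863-13071912, plus strand) and exon 2 of Tmem106c (chr15:97964930-97964979, plus strand).
Tmem106b: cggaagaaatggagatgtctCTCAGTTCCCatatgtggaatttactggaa
Tmem106c: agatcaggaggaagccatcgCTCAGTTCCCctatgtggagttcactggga

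Counted reads per library were 34642505 to 36079556 in ASO 1 and 31100492 to 35817642 in saline. Of 52636 genes listed, 19246 passed the expression filter and were tested. Pan-neuronal genes were abundant in both groups, with 12 members summing to 9465 to 10380 CPM (read counts scaled to the library's total) in ASO 1 and 10030 to 10680 CPM in saline. Markers of single brain regions differed between libraries of the groups. Pmch, the melanin-concentrating hormone precursor of hypothalamic neurons, had 13.5, 38.6 and 0.316 CPM in ASO 1 replicates 1 to 3, against 0.309 to 1.27 CPM in the 5 saline libraries, and 2 of 3 ASO 1 libraries were above 5 CPM. The mean log2 CPM of 10 striatal projection neuron genes was 7.35, 7.52 and 7.83 in ASO 1 and 7.82 to 8.20 in saline. The part of these markers in the results was not tested beyond the values given beside them without the high-Pmch libraries, where ASO 1 keeps 1 library whose spread is assumed to match that of the other groups, and with the striatal and hypothalamic means as covariates.

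Tmem106b fell in ASO 1. It had 43.9, 62.2 and 53.7 CPM in the ASO 1 libraries, against 214.5, 186.8, 171.2, 195.5 and 191.7 CPM in the saline libraries. Every ASO 1 library lay below every saline library, and the mean was 72.3% lower. The log2 fold change was -1.85 (SE 0.16; edgeR quasi-likelihood test, adjusted p = 4.78e-10). Per kilobase, Tmem106b averaged 7.80 ± 1.42 RPKM in ASO 1 and 27.9 ± 2.16 RPKM in saline (SD, n = 3 and 5).

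Neither paralog passed the test. Tmem106c had 36.4, 42.4 and 39.6 CPM in ASO 1, against 35.3, 36.7, 35.3, 38.1 and 36.5 CPM in saline, with a log2 fold change of 0.12 (SE 0.05; edgeR adjusted p = 0.351). Tmem106a was near the floor of expression, with 3.13, 2.25 and 2.38 CPM in ASO 1, against 2.17, 3.38, 1.91, 2.02 and 2.07 CPM in saline, and a log2 fold change of 0.16 (SE 0.19; edgeR adjusted p = 0.781). For both paralogs the groups overlapped.

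Grn had 146.2, 111.2 and 104.2 CPM in ASO 1, against 85.7, 104.2, 81.1, 86.1 and 88.5 CPM in saline. ASO 1 replicate 1 stood highest, and ASO 1 replicate 3 and saline replicate 2 met at 104.2 CPM, so the groups overlapped. The log2 fold change was 0.44 (SE 0.12), and it missed the threshold (edgeR adjusted p = 0.0996). It passed without ASO 1 replicate 3, at a log2 fold change of 0.53 (edgeR adjusted p = 0.0443), and was 0.27 without ASO 1 replicate 1. Microglial genes, described further on, were also highest in ASO 1 replicate 1, and their part in the Grn value was not tested. Over the same saline libraries Grn was also positive in each of the 7 other treatments. It ranged from 0.03 in ASO 2 to 0.41 in ASO 3, where it passed (edgeR adjusted p = 0.0333). Against the mean of the 7 other treatments Grn in ASO 1 was at 0.14 (edgeR adjusted p = 0.495).

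The lysosomal lists held no gene that passed in edgeR with all libraries. The 14 genes of progranulin and lysosomal trafficking had a median log2 fold change of 0.03, beside 0.0044 for all tested genes. The 32 lysosomal hydrolases had a median of 0.12, with 30 positive values; Man2b1 (lysosomal alpha-mannosidase) was at 0.31 and Naglu (alpha-N-acetylglucosaminidase) at 0.31 on the log2 scale. With DESeq2 both passed (adjusted p = 0.0401 and 0.048), and with no expression filter 1 hydrolase passed. The 19 lysosomal membrane proteins had a median of 0.07, and the 18 vacuolar ATPase subunits, which acidify the lysosome, had a median of -0.0071. At an unadjusted p under 0.05 in edgeR, 15 hydrolases and 6 membrane proteins were higher, as were 3 trafficking genes and 0 vacuolar ATPase subunits. Among all tested genes 6.44% were higher at that level.

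Across all genes, 44 of 19246 passed an adjusted p of 0.05 in ASO 1 against saline, which is 0.229% of those tested. Of these, 34 fell (0.177%) and 10 rose (0.052%). In each of the 44 the ASO 1 and saline libraries did not overlap, a state that 6.99% of tested genes share (3.29% with ASO 1 higher and 3.70% with ASO 1 lower). At an unadjusted p under 0.05 there were 2509 genes (13%), 1239 higher (6.44%) and 1270 lower (6.60%).

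**Figure D1:**
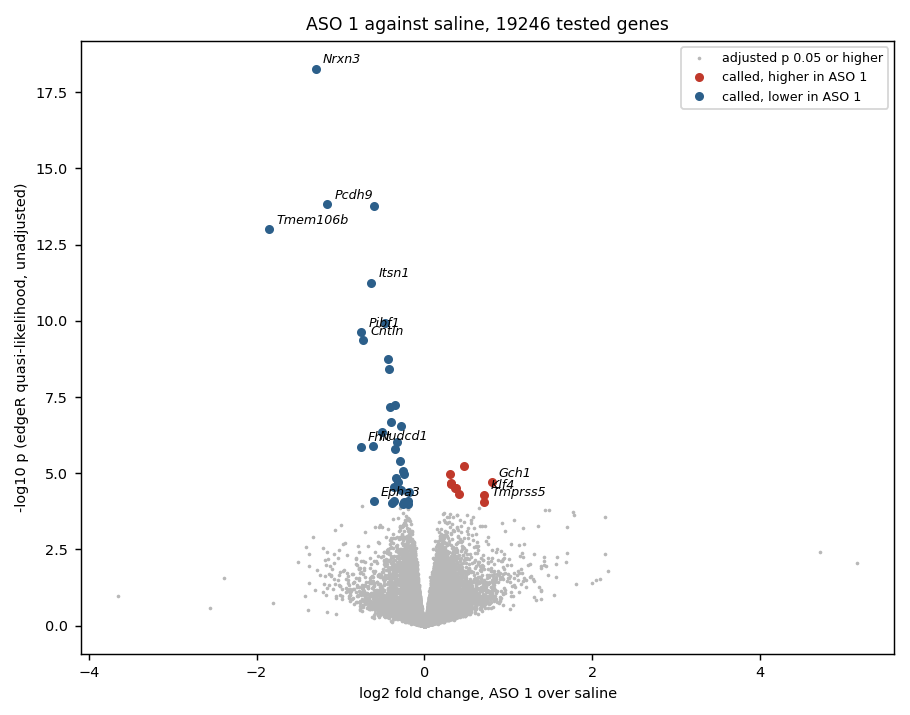
Each point is 1 of 19246 tested genes, with the log2 fold change of ASO 1 over saline on the x axis and -log10 of the unadjusted p on the y axis; red and blue points are the 10 genes that rose and the 34 that fell. Falls reach a log2 fold change of -1.85 (Tmem106b) and rises 0.80 (Gch1).

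Many of these calls did not pass when 1 library was left out, which also leaves fewer libraries to test. Leaving out ASO 1 replicate 1 left 19 calls, leaving out ASO 1 replicate 2 left 27, leaving out ASO 1 replicate 3 gave 118, and leaving out saline replicate 1 left 24. In all 8 fits that left out 1 library, 16 of the 44 passed, every one a fall: Tmem106b, Nrxn3, Pcdh9, Fhit, Pibf1, Cntln, Itsn1, Mvb12b, Slmap, Itm2b, Abl1, Anapc5, Fxr1, Ctnna2, Ssbp2 and Nrcam. Without the high-Pmch libraries 10 genes were called, 9 of them among the 44 (Tmem106b, Nrxn3, Pcdh9, Pibf1, Itsn1, Mvb12b, Itm2b, Abl1 and Anapc5), and with regional covariates 25, of which 23 were among the 44. The log2 fold changes of all 44 stayed within 1.5 times their value when any 1 library was left out (ratios of 0.740 to 1.27), and those of 41 did so without the high-Pmch libraries (0.593 to 1.39). Fhit, for example, was at -0.82 and Cntln at -0.74 without the high-Pmch libraries, though neither passed there.

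**Figure D2:**
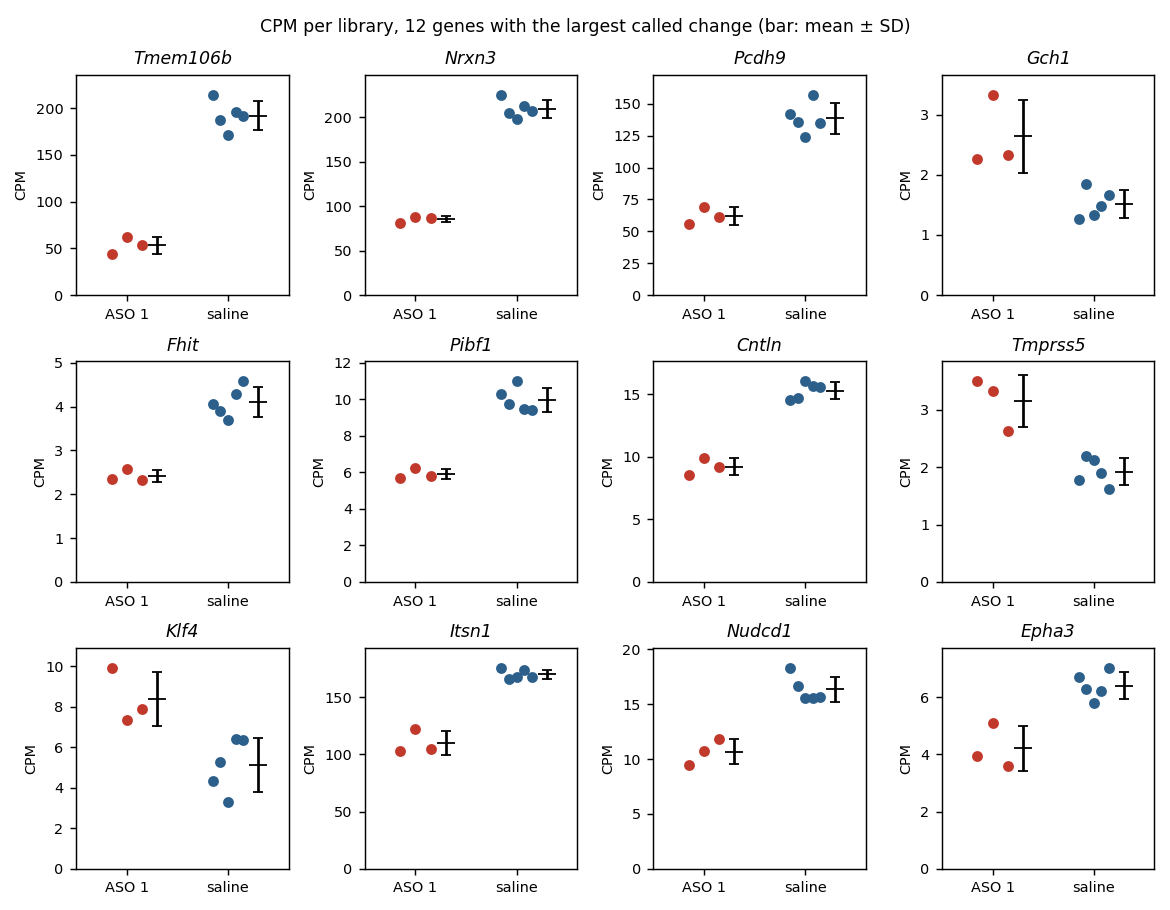
Each panel shows CPM on the y axis for the 3 ASO 1 libraries (red, left) and the 5 saline libraries (blue, right) with mean ± SD, for the 12 called genes with the largest absolute log2 fold change. In every panel the groups are apart, from Tmem106b at 43.9 to 62.2 CPM in ASO 1 and 171.2 to 214.5 CPM in saline to Klf4 at 7.35 to 9.89 CPM in ASO 1 and 3.31 to 6.39 CPM in saline.

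The next largest falls after Tmem106b were Nrxn3 and Pcdh9. Nrxn3 encodes neurexin 3, a presynaptic adhesion protein (chr12:88722876-90334935, plus strand). It had 81.5, 87.8 and 87.1 CPM in ASO 1, against 225.4, 204.2, 198.4, 212.9 and 206.5 CPM in saline. The ASO 1 libraries lay close together and below every saline library, at a log2 fold change of -1.29 (SE 0.08; edgeR adjusted p = 1.03e-14). Pcdh9 encodes a delta protocadherin, a cadherin-family adhesion protein (chr14:93013410-93890679, minus strand). It had 55.5, 69.0 and 61.5 CPM in ASO 1, against 141.7, 135.5, 123.9, 157.3 and 134.7 CPM in saline. Its log2 fold change was -1.16 (SE 0.10; edgeR adjusted p = 1.08e-10), with no overlap.

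Related genes did not pass. Nrxn2, a paralog of Nrxn3, had a log2 fold change of 0.03 (SE 0.06), and of 20 neurexins, neuroligins and partners only Nrxn3 was called, with a list median of -0.01. Lrrtm3 and Lrrtm4, postsynaptic partners of neurexins, were at -0.25 and -0.18, and Lrrtm1 was at 0.23. Of 9 delta protocadherins only Pcdh9 was called, with a list median of -0.08, Pcdh7 at -0.23 and Pcdh20 at 0.17.

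Epha3, an ephrin receptor, had 3.96, 5.10 and 3.59 CPM in ASO 1, against 6.72, 6.28, 5.79, 6.23 and 7.01 CPM in saline. Its log2 fold change was -0.60 (SE 0.14; edgeR adjusted p = 0.0399). Ctnna2, the neuronal alpha-catenin, fell by 0.40 on the log2 scale, Efna5, the ligand ephrin-A5, by 0.34, Nrcam, an immunoglobulin-family adhesion molecule, by 0.27, and Ajap1, an adherens junction protein, by 0.25. Nkain2, whose product binds a sodium pump subunit, fell by 0.38, and Plxdc2, a plexin-domain membrane protein, by 0.36. The Epha3, Efna5, Nkain2, Plxdc2 and Ajap1 calls ended without ASO 1 replicate 1, at adjusted p values of 0.333, 0.192, 0.384, 0.279 and 0.27 in edgeR. Of the 8 fits that left out 1 library, Plxdc2 lost its call in 7, Epha3 and Nkain2 in 5 each, Efna5 in 3 and Ajap1 in 2.

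Itsn1 encodes intersectin 1, a scaffold of clathrin-mediated endocytosis. It had 103.3, 122.0 and 104.4 CPM in ASO 1, against 175.4, 165.7, 168.0, 173.6 and 168.2 CPM in saline. The saline libraries were tight and all lay above the ASO 1 libraries, at a log2 fold change of -0.63 (SE 0.06; edgeR adjusted p = 2.13e-08). Itsn2 was at -0.10 (SE 0.05), and Itsn1 was the 1 gene called of 20 intersectins and endocytic partners, whose median was -0.03. Mvb12b, an ESCRT-I subunit that sorts cargo into multivesicular bodies, fell by 0.60 on the log2 scale (SE 0.05). Abl1, a non-receptor tyrosine kinase, fell by 0.43, Slmap, a tail-anchored membrane protein of the STRIPAK complex, by 0.51, and Itm2b, which encodes BRI2, a membrane protein mutated in familial British and Danish dementia, by 0.47. Itm2b is an abundant gene, with 483.2 ± 29.7 CPM in ASO 1 and 669.1 ± 30.2 CPM in saline (SD, n = 3 and 5). Vps13b, a lipid transfer protein of the Golgi, fell by 0.35, and Atl1, the endoplasmic reticulum GTPase atlastin 1, by 0.30. Both of these calls ended without ASO 1 replicate 1 (edgeR adjusted p = 0.117 and 0.27).

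Pibf1, a centrosomal protein, had 5.68, 6.21 and 5.82 CPM in ASO 1, against 10.3, 9.72, 10.98, 9.49 and 9.39 CPM in saline. Cntln, or centlein, which links the centrioles, had 8.54, 9.90 and 9.18 CPM in ASO 1, against 14.5, 14.7, 16.0, 15.7 and 15.6 CPM in saline. Their log2 fold changes were -0.75 (SE 0.09; edgeR adjusted p = 6.41e-07) and -0.73 (SE 0.09; edgeR adjusted p = 1.05e-06), again with no overlap. Anapc5, a subunit of the anaphase-promoting complex, fell by 0.42, and C2cd3, a protein of the distal centriole, by 0.26. The C2cd3 call was lost in 7 of the 8 single-library omissions, most clearly without ASO 1 replicate 1 (edgeR adjusted p = 0.273).

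Fhit, a diadenosine triphosphate hydrolase at a common fragile site, had 2.35, 2.58 and 2.32 CPM in ASO 1, against 4.05, 3.89, 3.69, 4.28 and 4.57 CPM in saline. Nudcd1, a NudC-domain protein, had 9.49, 10.7 and 11.8 CPM in ASO 1, against 18.3, 16.6, 15.6, 15.6 and 15.7 CPM in saline. Both had every ASO 1 library below every saline library, at log2 fold changes of -0.76 (SE 0.13; edgeR adjusted p = 0.00146) and -0.62 (SE 0.11; edgeR adjusted p = 0.00142). The Nudcd1 call ended without ASO 1 replicate 1 (edgeR adjusted p = 0.0673). Among regulators of RNA and chromatin, Fxr1, an RNA-binding paralog of FMRP, fell by 0.41, Ssbp2, a cofactor of LIM-domain complexes, by 0.35, Pbx3, a homeodomain factor, by 0.36, Zmym4, a zinc finger protein, by 0.32, Rbm5, a splicing regulator, by 0.31, Rbbp5, a subunit of histone H3K4 methyltransferases, by 0.20, and Mbd5 by 0.19. Iffo1 fell by 0.27, Dip2c by 0.24 and Mtx3, a mitochondrial metaxin, by 0.24. Of these, Pbx3, Zmym4, Rbbp5, Mbd5, Dip2c and Mtx3 lost their call without ASO 1 replicate 1 (edgeR adjusted p from 0.0586 to 0.396), and Rbm5 and Iffo1 without ASO 1 replicate 2 (0.125 and 0.151). Omitting other libraries ended some of these calls too. Of the 8 such fits, Rbbp5 lost its call in 7 and Mtx3 in 6. Mbd5 and Iffo1 lost it in 4 each, and Pbx3 and Rbm5 in 3 each.

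The genes that fell were long. The median annotated span was 156.5 kb for the 34 falls, 16.7 kb for the 10 rises and 18.6 kb for all tested genes with a position. Of the falls 22 spanned at least 100 kb (64.7%), against 0 of 10 rises and 12.7% of all tested genes; among tested genes with at least 10 CPM in saline, 17.1% did. Tmem106b itself spans 19.5 kb. The share of tested genes that fell was 0% below 10 kb, 0.0927% from 10 to 30 kb, 0.149% from 30 to 100 kb, 0.637% from 100 to 300 kb, 1.20% from 300 to 1000 kb and 7.02% above 1000 kb, where 4 of 57 genes fell (Nrxn3, Fhit, Nkain2 and Ctnna2). The median log2 fold change of all genes in these classes was 0.02, 0.01, -0.0048, -0.04, -0.07 and -0.17. Of 21 tested fragile-site and very long genes, Fhit and Ctnna2 were called, where 0.177% of all tested genes fell. The list median was -0.15 and 20 values were negative. Macrod2, Rbfox1 and Cntnap2 were at -0.32, -0.23 and -0.24 without passing. Spans are a description of the annotation, and counts were made over exons.

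**Figure D3:**
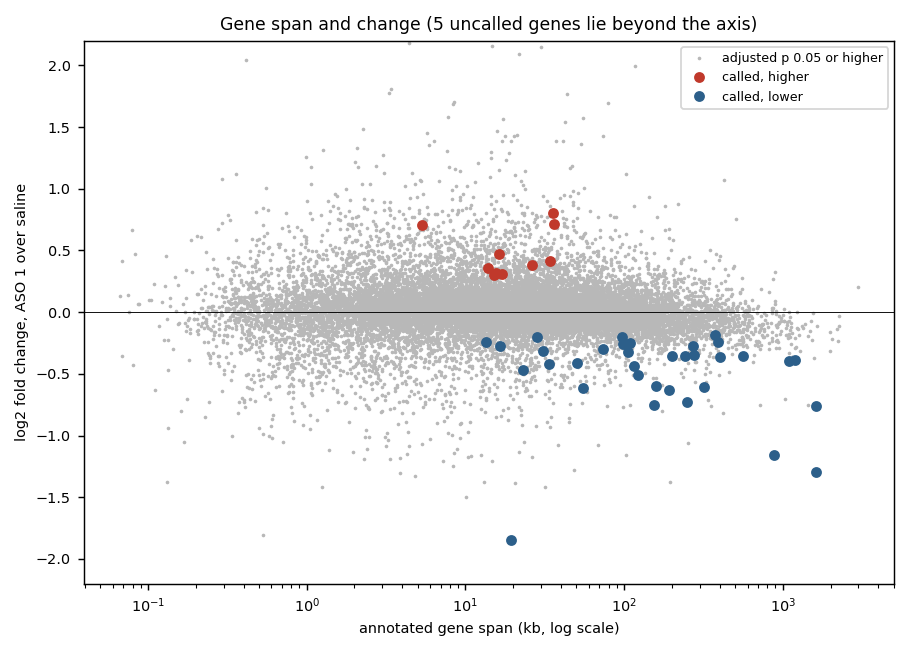
Annotated gene span in kb is on the x axis (log scale) and the log2 fold change of ASO 1 over saline on the y axis, with 1 point per tested gene; 5 uncalled genes lie beyond the y axis. The 34 falls (blue) have a median span of 156.5 kb and the 10 rises (red) of 16.7 kb, within a cloud of all tested genes with a median of 18.6 kb.

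The largest of the 10 rises was 0.80 on the log2 scale, against -1.85 for the largest fall. Each rise lost its call in at least 1 of the 8 fits that left out 1 library. Gch1, GTP cyclohydrolase 1, the rate-limiting enzyme of tetrahydrobiopterin synthesis, had 2.27, 3.34 and 2.32 CPM in ASO 1, against 1.27, 1.84, 1.34, 1.49 and 1.66 CPM in saline. Tmprss5, a transmembrane serine protease, had 3.50, 3.34 and 2.64 CPM in ASO 1, against 1.77, 2.204, 2.13, 1.89 and 1.63 CPM in saline. Klf4, a zinc finger transcription factor, had 9.89, 7.35 and 7.86 CPM in ASO 1, against 4.33, 5.25, 3.31, 6.39 and 6.36 CPM in saline. All 3 genes were low, and in each the lowest ASO 1 library lay just above the highest saline library. Their log2 fold changes were 0.80 (SE 0.16; edgeR adjusted p = 0.0142), 0.71 (SE 0.16; 0.0411) and 0.71 (SE 0.15; 0.0274). Arid5a, an RNA-binding regulator of inflammatory transcripts, rose by 0.47 on the log2 scale, Thsd1, an endothelial membrane protein, by 0.41, Trf, transferrin, by 0.38, Nfil3, a transcription factor of the clock, by 0.36, Mag, the myelin-associated glycoprotein, by 0.32, Slc4a2, an anion exchanger, by 0.31, and Kdm6b, a histone H3K27 demethylase, by 0.30. Without ASO 1 replicate 1 the calls of all but Gch1 ended (edgeR adjusted p from 0.197 to 0.392), and Gch1 ended without ASO 1 replicate 2 (0.251). Of the 8 fits, Tmprss5 lost its call in 6, Thsd1 in 5, and Mag, Nfil3 and Trf in 4 each. Gch1, Klf4, Kdm6b and Slc4a2 lost it in 3 each and Arid5a in 1.

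Most microglial genes had positive fold changes in ASO 1, and none passed in edgeR with all libraries and the expression filter. In bulk RNA a change in the number of cells of a type and a change of RNA per cell cannot be told apart. All 24 disease-associated microglia genes had positive log2 fold changes with a median of 0.51, and 0 of 24 were called, where 0.229% of all genes were. At an unadjusted p under 0.05 in edgeR, 18 of the 24 were higher, where 6.44% of all tested genes were. Itgax, an integrin of activated microglia, had 16.3, 7.57 and 7.17 CPM in ASO 1, against 3.04, 6.01, 2.61, 3.91 and 3.51 CPM in saline (log2 fold change 1.44, SE 0.34; edgeR adjusted p = 0.0602). ASO 1 replicate 1 was by far the highest library and saline replicate 2 the highest saline library. Spp1, osteopontin, was at 1.35 and Ccl6, a chemokine, at 1.07 on the log2 scale. The mean log2 CPM of the list was 6.0, 5.47 and 5.33 in ASO 1 and 4.83, 5.47, 4.79, 4.94 and 4.98 in saline, so the groups overlapped. The list median was 0.29 without ASO 1 replicate 1, 0.20 without the high-Pmch libraries and 0.27 in the fit with regional covariates; without ASO 1 replicate 3 it was 0.66. Members passed under some alternatives: 5 without ASO 1 replicate 3, 5 with no expression filter, 2 without saline replicate 2 and 2 with DESeq2 (Itgax and Ccl6, adjusted p = 0.034 and 0.0432).

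Complement and immunoglobulin receptor genes had a median of 0.40 with none of 12 called, and the complement subunits C1qa, C1qb and C1qc were at 0.66, 0.59 and 0.62. The 15 homeostatic microglia genes had a median of 0.12, with Fcrls at 0.65 (SE 0.15; edgeR adjusted p = 0.0565; DESeq2 adjusted p = 0.034). The homeostatic median was 0.01 without ASO 1 replicate 1, 0.0053 without the high-Pmch libraries and 0.02 in the regional covariate fit. In the same order the complement median was 0.28, 0.17 and 0.23. Without ASO 1 replicate 3 these medians were 0.17 and 0.50. Fcrls ranged from 0.38 to 0.81 when single libraries were dropped, and was at 0.39 with regional covariates. With no expression filter 3 complement genes and 1 homeostatic gene passed. Border macrophage genes had a median of -0.17 over 9 genes.

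Calls among genes of other glia and vessels were Mag, Trf and Thsd1, where 0.052% of all tested genes rose. In the list of 20 oligodendrocyte and myelin genes Mag and Trf rose, the median was 0.10, and Mal, a myelin proteolipid, stood at -0.26 without passing. In the fit with regional covariates the myelin list median was 0.0046. Neither Mag nor Trf passed there, at 0.19 and 0.24 (edgeR adjusted p = 0.447 and 0.557). Leaving out the high-Pmch libraries gave a list median of 0.0001, with Mag at 0.24 and Trf at 0.28. Of 15 endothelial genes Thsd1 rose, with a median of 0.16 and Cldn5, claudin 5, at 0.28. None of 13 astrocyte identity genes (median 0.03), 21 reactive astrocyte genes (median 0.16; Gfap at 0.51, SE 0.17), 12 oligodendrocyte precursor genes (median 0.10), 10 pericyte genes (median 0.10), 10 choroid plexus genes (median 0.18) or 5 red blood cell genes (median -0.40) passed.

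Innate nucleic acid responses were near the genome-wide median. The 30 interferon response genes had a median of 0.05, with Irf9 at 0.26 and Lgals3bp at 0.42, and the 14 nucleic acid sensors had a median of 0.08; none passed. Of 16 p53 targets (median 0.07), 20 genes of endoplasmic reticulum and integrated stress (median -0.02) and 15 genes of RNase H1 and nuclear RNA decay (median -0.07) none passed.

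No gene of the region and neuron lists passed. All 10 striatal projection neuron genes were negative, with a median of -0.43. Pde10a was at -0.48 and Drd2, the dopamine D2 receptor, at -0.43. In edgeR all 10 had an unadjusted p under 0.05, where 6.60% of all tested genes were lower at that level. With regional covariates the striatal median was 0.0002, by the construction of that fit. The 10 hypothalamic genes had a median of 0.62, which was 0.05 without ASO 1 replicate 2, and the 8 thalamic genes a median of 0.49, which was 0.18 without ASO 1 replicate 2. Prkcd, a thalamic kinase, had 75.7, 78.8 and 35.8 CPM in ASO 1, against 35.7, 35.1, 31.0, 33.5 and 29.8 CPM in saline. The 12 inhibitory neuron genes had a median of -0.11, the 10 cortical and hippocampal genes -0.10 and the 12 pan-neuronal genes -0.02, with none called.

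**Figure D4:**
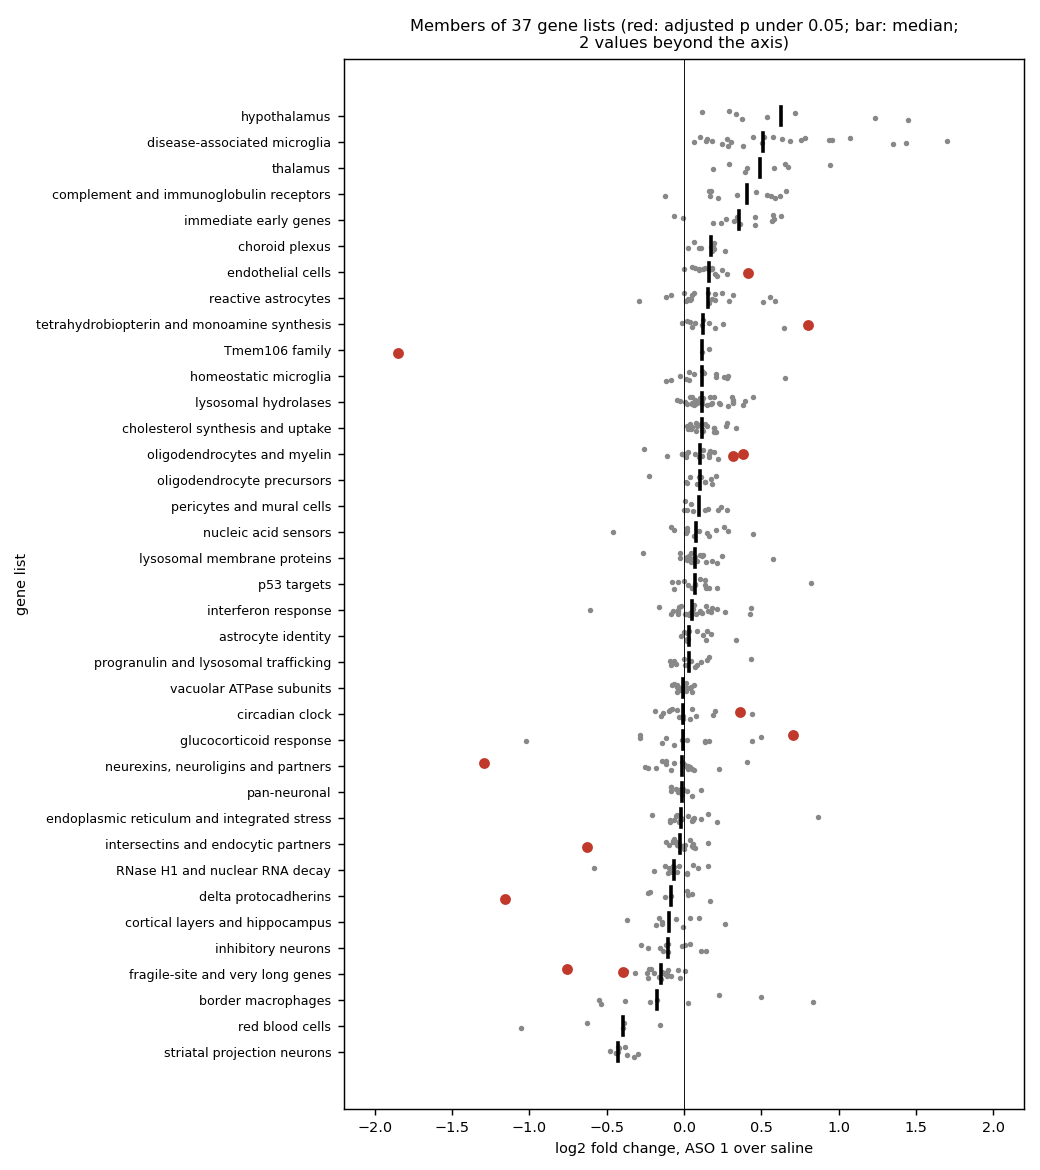
Each point is the log2 fold change of ASO 1 over saline (x axis) for 1 member of a gene list (y axis), with the list median as a black bar and genes with an adjusted p under 0.05 in red; 2 hypothalamic values lie beyond the axis. Medians run from -0.43 for striatal genes to 0.62 for hypothalamic genes, and most lists hold no red point.

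The remaining lists held 1 call or none each, where 0.052% of all tested genes rose. Of 12 tetrahydrobiopterin and monoamine genes Gch1 rose (median 0.12), of 17 circadian genes Nfil3 rose (median -0.0082) and of 15 glucocorticoid response genes Klf4 rose (median -0.0086). The 14 immediate early genes had a median of 0.35 and the 20 cholesterol genes a median of 0.12 with 20 positive values, with none called in either list; Mvd, an enzyme of the mevalonate pathway, was nearest, at 0.34 (SE 0.08; edgeR adjusted p = 0.0823), and 1 cholesterol gene passed with DESeq2, with no expression filter or without saline replicate 5.

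ASO 1 was next set against the mean of the 7 other treatments, which leaves saline out. In this comparison 157 genes passed (0.816%), 91 higher in ASO 1 (0.473%) and 66 lower (0.343%). Tmem106b was lower in ASO 1, with 53.3 CPM on average against group means of 57.9 to 112.9 CPM in the other treatments (log2 fold change -0.60, SE 0.13; edgeR adjusted p = 0.0202). Nrxn3 was lower by a log2 fold change of -0.49, Pcdh9 of -0.62 and Pibf1 of -0.47. Nrxn3 averaged 85.5 CPM in ASO 1, 191.3 in ASO 4, 183.6 in ASO 3 and 86.0 in RTR59155, so the mean of the 7 groups covers treatments with unlike levels. Pde7b, a phosphodiesterase, was at -0.41, Zfp867, a zinc finger gene, at -0.41, and Osbpl8, a lipid transfer protein, at -0.39. With regional covariates these genes were at -0.17, -0.37 and -0.24, and their calls ended (edgeR adjusted p = 0.236, 0.0647 and 0.322). The Tmem106b call ended there too (0.107). Dropping single libraries ended the Pde7b call 17 times. Ifit3b, an interferon-induced gene, was at -0.45, with 4.80 CPM in ASO 1, 22.0 CPM in RTR113609 and 4.74 to 6.84 CPM in the other 6 groups.

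Immediate early genes, which neuronal activity induces, were among the genes higher in ASO 1 than in the 7 other treatments. Of 14 such genes 6 passed, where 0.473% of all tested genes were higher: Egr2 (log2 fold change 1.35), Fos (1.13), Arc (1.12), Nr4a1 (1.102), Egr1 (0.66) and Egr4 (0.60). With regional covariates the calls of Fos, Arc and Egr1 ended (edgeR adjusted p = 0.265, 0.277 and 0.0647). Fos averaged 51.8 ± 0.608 CPM in ASO 1 (SD, n = 3), with group means of 14.4 to 53.8 CPM in the other treatments, of which RTR113841 was the highest. Against saline Fos did not pass, with 52.5, 51.4 and 51.6 CPM in ASO 1 and 25.1, 29.9, 23.1, 52.7 and 42.8 CPM in saline (log2 fold change 0.58, SE 0.34). Egr2 averaged 14.2 CPM in ASO 1, 15.1 CPM in RTR113841 and at most 7.30 CPM in the other 6 treatments. Nr4a3, an orphan nuclear receptor of the same class, was at 0.83, and Tmem252 at 1.09. Tnfrsf25, a death-domain receptor, was at 0.91, with 5.27, 2.01 and 1.72 CPM in the ASO 1 libraries, and at 0.23 without ASO 1 replicate 1. Nnt, a mitochondrial transhydrogenase under the level set for naming and chosen after its values were seen, had the largest log2 fold change of the calls higher in ASO 1, at 1.78 (edgeR adjusted p = 0.024), with 1.92, 0.109 and 0.172 CPM in the ASO 1 libraries, so 1 library carried it.

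Gch1 (0.74) and the glucocorticoid-responsive genes Per1 (0.66) and Klf2 (0.65) were also higher in ASO 1 than in the 7 treatments. Of 20 cholesterol genes 5 passed, all higher, where 0.473% of all tested genes were higher. Among them were Mvd (0.39), Cyp51 (0.28) and Mvk (0.22). With regional covariates the calls of Cyp51 and Mvk ended (edgeR adjusted p = 0.0647 and 0.345), and that of Mvd stayed (0.04). Counts in this comparison varied with the libraries used. Leaving out ASO 1 replicate 1 left 14 calls, leaving out ASO 1 replicate 2 left 35, leaving out ASO 1 replicate 3 gave 496, and leaving out RTR113609 replicate 3 gave 237. Of the genes named here, Pcdh9, Nrxn3, Pibf1 and Per1 passed whichever single library was omitted. Omitting ASO 1 replicate 1 ended the call of Tmem106b (edgeR adjusted p = 0.314) and of the 6 immediate early genes (0.104 to 0.33), while the log2 fold change of Fos stayed between 1.11 and 1.18 whichever library was omitted. Without the high-Pmch libraries, 11 of the 39, 0 genes passed in edgeR, with 588 at an unadjusted p under 0.05; DESeq2 on all libraries called 480.

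RTR59155 was the treatment nearest to ASO 1 in Tmem106b, with 53.3 ± 9.14 CPM in ASO 1 and 57.9 ± 11.9 CPM in RTR59155 (SD, n = 3 and 5; log2 fold change -0.12, SE 0.16; edgeR adjusted p = 0.941). Between them 8 genes passed (0.0416%), 7 higher in ASO 1 (0.0364%) and 1 lower (0.0052%). Col19a1, a fibril-associated collagen, averaged 3.36 ± 0.243 CPM in ASO 1 and 1.74 ± 0.193 CPM in RTR59155 (log2 fold change 0.94, SE 0.14; edgeR adjusted p = 0.00177). Abl1 averaged 59.0 ± 3.23 CPM in ASO 1 and 46.7 ± 2.70 CPM in RTR59155 (0.34, SE 0.05; 0.00327), and Nudcd1 10.7 ± 1.15 CPM in ASO 1 and 7.19 ± 0.871 CPM in RTR59155 (0.57, SE 0.11; 0.0269).

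The others higher in ASO 1 were Gimap6, a lymphocyte and endothelial GTPase (0.75), Sik1, a salt-inducible kinase (0.58), Galnt6, a mucin-type glycosyltransferase (0.42), and Klf15, a glucocorticoid-induced factor (0.26). Against saline, where it averaged 4.76 CPM, Col19a1 was at -0.50 in ASO 1 (edgeR adjusted p = 0.0996) and -1.45 in RTR59155. In the same order Abl1 was at -0.43 and -0.77, Nudcd1 at -0.62 and -1.18, and Galnt6 at 0.08 and -0.34. Gimap6 was at 0.58 and -0.17, Sik1 at 0.40 and -0.18, and Klf15 at 0.195 and -0.06. Lcmt2, a tRNA-modifying methyltransferase, was lower in ASO 1 (-0.42). Col19a1 passed in every fit that left out 1 library, while leaving out ASO 1 replicate 2 left 1 call, leaving out ASO 1 replicate 1 or RTR59155 replicate 3 left 3 each, leaving out RTR59155 replicate 4 left 4, and leaving out RTR59155 replicate 1 left 5. With ASO 1 and RTR59155 alone in the fit, edgeR called 0 genes, with 1085 at an unadjusted p under 0.05; DESeq2 on all libraries called 24.

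Each of the 8 treatments shares the same 5 saline libraries, so their changes against saline are given side by side and not as separate evidence. Tmem106b had log2 fold changes of -1.85 in ASO 1, -1.10 in ASO 2, -1.33 in ASO 3, -0.77 in ASO 4, -1.49 in RTR113609, -0.98 in RTR113643, -1.38 in RTR113841 and -1.73 in RTR59155. Nrxn3 was at -1.29 in ASO 1, -1.02 in ASO 2, -0.19 in ASO 3, -0.13 in ASO 4, -0.77 in RTR113609, -0.996 in RTR113643, -1.21 in RTR113841 and -1.28 in RTR59155. Pibf1 was at -0.75 in ASO 1, between -0.54 and -0.72 in RTR113643, RTR113841 and RTR59155, and between -0.20 and 0.05 in ASO 2, ASO 3, ASO 4 and RTR113609. Ctnna2 was at -0.40 in ASO 1 and -1.78 in ASO 3.

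**Figure D5:**
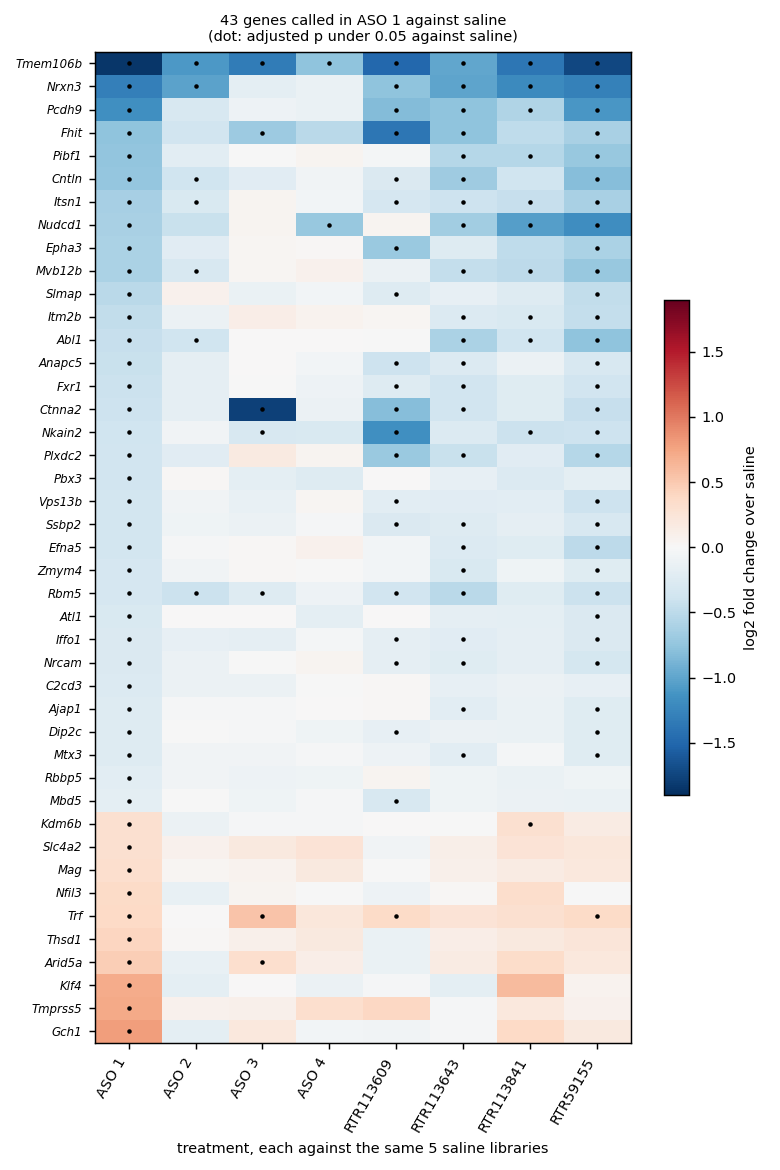
Rows are 43 of the 44 genes called in ASO 1 against saline and columns the 8 treatments, ASO 1 first, coloured by log2 fold change over the same 5 saline libraries; a black dot marks an adjusted p under 0.05. The ASO 1 column carries a dot in every row by the choice of genes, the Tmem106b row is blue in every treatment (-0.77 to -1.85), and the Nrxn3 row is pale in ASO 3 (-0.19) and ASO 4 (-0.13).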

How the data were processed

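Per the labels' protocols, RNA was extracted with the RNeasy Plus Micro Kit and made into libraries with the TruSeq Stranded mRNA kit. Per the submitters' processing notes, GSNAP and GRCm38 were used (versions, counter, annotation release and strand setting not given in the sources used here), so overlapping and antisense genes are uncertain. The authors deposited 1 table per library with exonic read counts per gene, an RPKM value and a gene width in bases.

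Counts were tested with edgeR 4.0.16 (R 4.3.3; filterByExpr, TMM scaling, quasi-likelihood, Benjamini-Hochberg adjustment over 19246 genes, threshold 0.05), with 39 libraries and 9 groups in 1 fit without covariates. CPM are TMM-scaled. The deposited RPKM are printed only for Tmem106b. Symbols, positions and spans come from GENCODE M21. Scripts were tested on simulated data. Genes named are those called against saline, the members of 37 lists that passed plus up to 3 with the smallest p, and the 8 largest changes each way in the other comparisons; in the 7-treatment comparison, further list members are named that were chosen after their values were seen. Results for a few eligible genes are left out here. Members and lists were chosen with earlier results of these data known. Alternatives were DESeq2 1.42.0, median-of-ratios scaling, no filter, 2 groups only and leaving out each library; the regional and high-Pmch fits were added after seeing the data. Fits that leave out 1 library keep the gene set of the full fit. They were first run with the filter redone and changed after both sets of counts were known; both are given in the closing section.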

Additional observations from a re-analysis of the deposited data

Results flagged for a closer look

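Within groups of 5 libraries, 7 values stood apart from the other 4 by Dixon's ratio, out of 118 gene and group pairs examined; by chance about 1 in 20 would. Saline replicate 2 was high for Tmem106a (3.38 CPM, others 1.91 to 2.17), C1qa (114.6 CPM, others 76.1 to 85.4), Hcrt (0.241 CPM, others 0.0310 to 0.0563) and Atf3 (3.35 CPM, others 2.04 to 2.25). Saline replicate 3 was low for Plxdc2 (38.5 CPM, others 46.0 to 48.8) and high for Sesn2 (22.1 CPM, others 19.0 to 19.8). RTR59155 replicate 2 was high for Klf15 (30.1 CPM, others 25.3 to 26.5). Groups of 3, ASO 1 among them, were not examined.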

How the results depend on the processing

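The fall of Tmem106b against saline kept its direction and call under every alternative run. Grn kept its direction and passed with no expression filter (log2 fold change 0.44), with DESeq2 (0.43) and, among fits without 1 library, without ASO 1 replicate 3; it ranged from 0.27 to 0.53 without 1 library. Called genes against saline numbered 44; they were 73 with no filter, 27 with 2 groups only, 114 with DESeq2, 25 with regional covariates, 10 without the high-Pmch libraries, and 19 to 118 without 1 library. Against the 7 other treatments the 157 became 245 with no filter, 480 with DESeq2, 20 with regional covariates, 0 without the high-Pmch libraries (588 at an unadjusted p under 0.05), and 14 to 496 without 1 library. Against RTR59155 the 8 became 0 with 2 groups only (1085 at an unadjusted p under 0.05), 24 with DESeq2, 5 with regional covariates, 0 without the high-Pmch libraries (476 at an unadjusted p under 0.05), and 1 to 7 without 1 library. Median-of-ratios scaling kept each count within 1.5 times.

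The fits without 1 library depend on a choice made after their counts were known. With the expression filter redone in each, the counts against saline were 20 without ASO 1 replicate 1, 28 without ASO 1 replicate 2 and 142 without ASO 1 replicate 3 (19, 27 and 118 with the gene set kept). Against the 7 other treatments they were 13, 35 and 619 (14, 35 and 496), and against RTR59155 3, 1 and 7 either way. The statement that 16 calls passed in all 8 fits holds for the kept gene set.

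Among the genes followed individually, signs were not firm for 3, all uncalled against saline. Without the high-Pmch libraries Pmch was at -1.07, Hcrt at -1.35 and Nrxn2 at -0.035. That fit leaves libraries out by their Pmch level, so its Pmch value follows from the choice of libraries. Hcrt belongs to the same hypothalamic list. Nrxn2 was also at -0.0238 with regional covariates and from -0.011 (without saline replicate 4) to 0.0555 without 1 library. Of the 157 genes called against the 7 other treatments, 1 changed sign without ASO 1 replicate 1 and 1 without the high-Pmch libraries. The share of rises among calls against saline was 10 of 44, against 39 of 114 with DESeq2, 35 of 73 with no filter and 0 of 25 with regional covariates. The cause was not tested. No paired analysis was possible because the labels give no replicate numbers. The replicate numbers used here were assigned within each group, in the order of the samples in the series. Genes of a few CPM had wide errors, such as Gch1 and Tmprss5 (SE 0.16 each).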

Other observations

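Nnt had 1.92 CPM in ASO 1 replicate 1 and 0.0860 to 0.528 CPM over the 38 libraries other than ASO 1 replicate 1. The same library held the highest Itgax and Spp1 values among the 8 ASO 1 and saline libraries, with 134.3 CPM of Spp1, against 46.1 and 40.5 CPM in the other ASO 1 libraries and 21.3 to 41.8 CPM in saline. Plin4, a lipid droplet coat protein, varied within saline, with 3.24, 2.98 and 2.84 CPM in ASO 1, against 11.6, 6.40, 7.25, 2.39 and 2.91 CPM in saline.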
